A study of Schizosaccharomyces pombe with 10 samples.

Results

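Deletion of set2 in fission yeast (Schizosaccharomyces pombe) was compared with its own parent, wt2, in 4 of the 10 poly(A) RNA-seq libraries of the series, 2 libraries a strain. The annotation lists 7268 genes, of which 5067 passed a filter on low counts and were tested. They were split by position: 138 of the 184 genes that lie less than 100 kb from the ends of chromosomes I and II, 4919 of the 7024 farther away or on chromosome III, and 10 of the 60 on sequences not placed on the 3 chromosomes. The parent wt2 is strain YBL685sp, h-, and set2Δ is YBL686sp, h-, with set2:null:KANMX, so that the gene is replaced by a drug resistance cassette. The other 6 libraries come from wt (YYX43sp, dy1779, h-, carrying his3 d1 and ura4-d18 with leu1-32 and ade6-m216) and from cph1Δ (YYX46sp) and cph2Δ (YYX47sp), each with a KANMX deletion in that same background. Every strain grew in rich 2xYES medium at 30 °C to an OD600 of 0.6 to 1.2, and RNA came from hot acidic phenol followed by a column. Each deletion is represented by a single strain, and no label tells whether replicate libraries came from different cultures, which means that p-values measure only the spread among these libraries.

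Set2 is the histone methyltransferase that travels with elongating RNA polymerase II and methylates lysine 36 of histone H3 behind it. In yeasts the mark is read by a histone deacetylase complex, Clr6 complex II in fission yeast (Rpd3S in budding yeast), which contains the chromodomain protein Alp13 and the PHD finger proteins Cph1 and Cph2, and which removes acetyl groups in the wake of the polymerase. The regions next to the telomeres of chromosomes I and II are kept nearly silent by heterochromatin and by the condensed chromatin beside it, and they hold many genes for transporters and for the use of scarce nutrients. The ends of chromosome III are arrays of ribosomal DNA, so genes there were counted with the rest of the genome.

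The deleted gene behaved as its label says. For set2 (SPAC29B12.02c, chromosome I, 5408180 to 5411132, minus strand, 1 exon), the wt2 libraries held 1211 and 1048 counts and the set2Δ libraries held 87 and 108. Its level was 106 ± 5.39 CPM (counts scaled to library size; SD, n = 2) in wt2 and 8.43 ± 0.247 CPM in set2Δ. The log2 fold change was -3.65 ± 0.17 (SE; edgeR quasi-likelihood adjusted p = 7.67e-07, by Benjamini-Hochberg over all genes tested). The exon overlaps another gene and the counting used no strand, so the remaining counts cannot be assigned to one strand. Of 4 neighbouring genes tested, none passed in edgeR, with a median log2 fold change of 0.52 (3 at an unadjusted p under 0.05, and 1 called by DESeq2). The marker ura4, which encodes an enzyme of uracil synthesis, had 1688 and 1357 counts in wt2 and 1825 and 2516 in set2Δ, against 0 in all 6 libraries of the wt background. The histidine gene his3 had between 0 and 5 counts in all 10 libraries, although the wt2 and set2Δ labels list no his3 allele. Both wt2 and set2Δ therefore differ from wt in a marker beyond set2, and wt2 is the reference for set2Δ throughout.

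The 4 libraries held 12020496 and 9711537 assigned counts (wt2) and 9984911 and 12841976 (set2Δ), within the 9711537 to 13051467 of the whole series. The 2201 genes left out for low counts held 0.0105% of all counts. Over all genes 219 were higher in set2Δ and 29 were lower at an adjusted p under 0.05, which is 4.89% of the 5067 tested (4.32% higher and 0.572% lower). Both set2Δ libraries lay outside both wt2 libraries for 58.1% of the genes tested (31.3% on the higher side). The median log2 fold change of all genes was 0.03. The share of counts from genes near the ends was 0.409% and 0.333% in wt2 and 0.948% and 0.813% in set2Δ.

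Genes beside the telomeres of chromosomes I and II were called higher in a larger share than genes elsewhere. Among those that rose were genes for transporters of urea, cysteine and amino acids, for asparaginases and an amidase, and for membrane proteins of unknown function. Of the 138 genes tested within 100 kb, 66 rose, 1 fell and 71 did not pass, a called share of 48.6% beside 4.89% over all genes; the median log2 fold change was 3.39. A gene silent everywhere but in set2Δ could enter the test only by differing, and 23 of the 138 did so. With genes chosen on the 8 libraries other than set2Δ, a setting added after the data were seen, 115 near genes were tested, 52 rose, none fell and the median was 2.79. Of all 184 annotated near genes, 94 and 75 had at least 10 counts in the wt2 libraries and 145 and 140 in the set2Δ libraries. Genes listed at 0 counts numbered 45 and 66 in wt2 and 23 in each set2Δ library.

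The median rise declined with distance. In steps of 25 kb from the ends of I and II, the median log2 fold change of the genes tested was 4.08, 3.70, 3.05 and 2.00 up to 100 kb, then 1.48, 0.53, 0.34 and 0.06 up to 200 kb. These steps keep the genes that entered the test only through set2Δ, 23 of 138 near the ends and 23 of 4919 away from them. Such genes raise the inner medians, and medians by step without them were not taken. Between 200 and 300 kb it was 0.14, with 13 of 168 genes higher, and beyond 300 kb it was 0.01, with 85 of 3646 higher. In the same 25 kb steps the share called higher was 63.0%, 58.6%, 50% and 26.3% up to 100 kb. It was then 55.6% (20 of 36 genes), 16.3%, 7.89% and 4.44% up to 200 kb, so this share did not fall steadily. The limit of 100 kb therefore cuts through a gradient of medians. Just inside it, pfl8 on chromosome I stood 99.9 kb from the end with a log2 fold change of -0.10, and ecl3 on chromosome II stood 98.2 kb from the end with -0.13. Just outside it, pdc101 on chromosome I stood at 101.7 kb with 0.15, and the non-coding SPNCRNA.291 on chromosome II stood at 103.2 kb with 2.50. Genes within 100 kb of the ends of chromosome III, beside the ribosomal DNA, had a median of 0.25, with 6 of 81 higher and 1 lower.

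**Figure D1:**
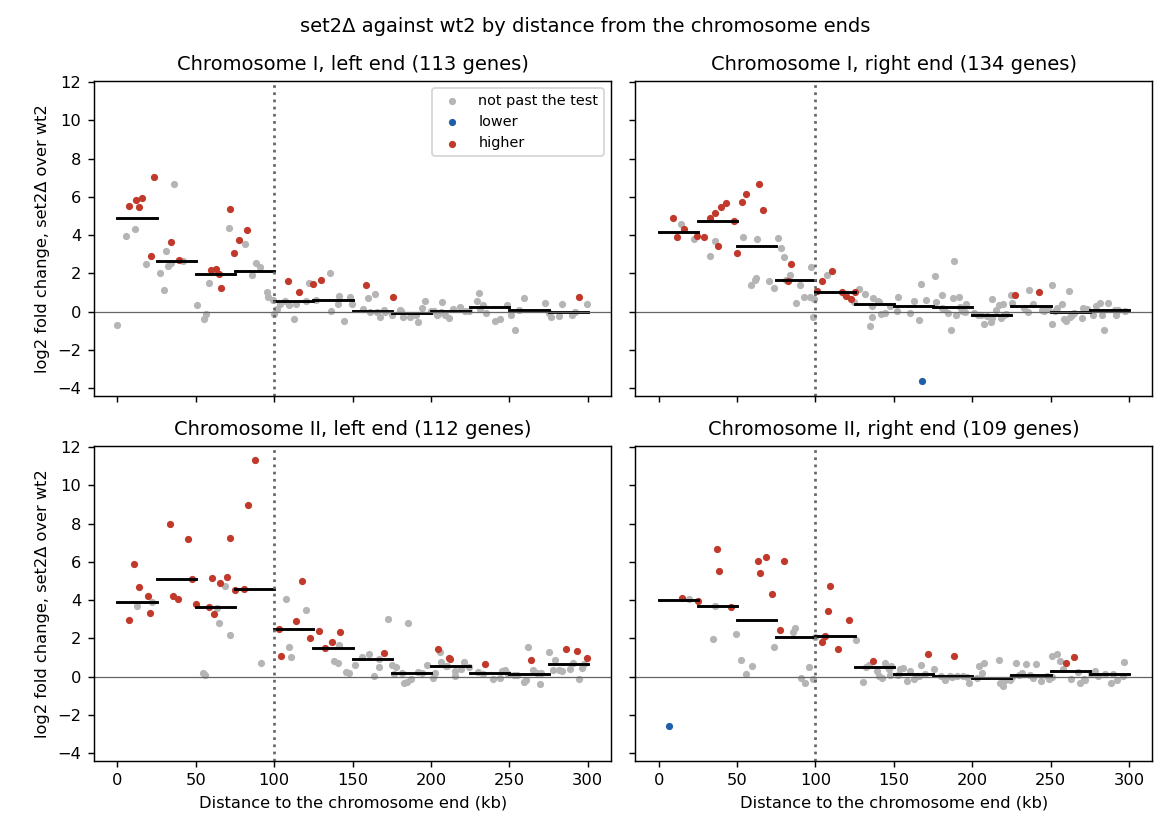
The log2 fold change of set2Δ over wt2 for each gene tested is plotted against its distance in kb to the nearest of the 4 ends of chromosomes I and II, 1 panel an end; red genes rose, blue genes fell, grey genes did not pass the test, black bars are medians of 25 kb steps and the dotted line marks 100 kb. Over the 4 ends together the medians decline from 4.08 in the first 25 kb to 0.06 in the last step before 200 kb, and the blue points are set2 (right end of I) and tlh2 (right end of II).

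All 4 ends took part, to different degrees. At the left end of chromosome II, 21 of 30 genes tested rose, with a median of 4.21, and the summed level of its genes went from 189 and 126 CPM in wt2 to 1482 and 1154 CPM in set2Δ. The right end of I had 18 of 41 higher (median 3.44), the left end of I 16 of 40 (2.53) and the right end of II 11 of 27 (2.46). The difference between ends was not tested, and these medians also keep the genes that entered the test only through set2Δ. Over the 4 ends together the summed level was 4131 and 3373 CPM in wt2 and 9341 and 7969 CPM in set2Δ. In the other strains it was 5387 and 6174 CPM in wt, 2964 and 5746 in cph1Δ and 2880 and 3582 in cph2Δ. The set2Δ libraries were thus above all 8 others for this sum, and for each end except the right end of II. At that end the sum was 1346 and 1312 CPM in wt2 and 1895 and 1572 CPM in set2Δ. There wt held 1746 and 2473 CPM, so set2Δ was not above both wt libraries. Some of the rising genes were neighbours. Runs of neighbouring coding genes past the test numbered 14 near the ends, and the longest held 7 genes each. These ran from SPAC977.14c to ght3 (chromosome I, 59614 to 84786, 25.2 kb) and from SPAC869.01 to SPAC186.06 (chromosome I, 5521275 to 5543031, 21.8 kb). Neighbours were taken along the tested coding genes alone, so other genes can lie between them. With 51 of the 98 coding genes tested near the ends higher, the runs were not set against a reference.

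Transporters for nitrogen compounds were among the largest rises. The urea transporter gene SPAC869.03c (chromosome I, 5512757 to 5514865) had 10 and 2 counts in wt2 and 588 and 715 in set2Δ, or 0.842 and 0.209 CPM against 58.1 and 54.6 CPM. Its log2 fold change was 6.65 ± 0.73 (edgeR adjusted p = 0.00048), and ran from 6.04 without wt2 replicate 2 to 8.0 without wt2 replicate 1. The other urea transporter gene, SPBPB8B6.02c (chromosome II, 44694 to 46836), had 4 and 0 counts in wt2 and 330 and 324 in set2Δ. The amino-acid permease gene nrg1 (chromosome II, 4457661 to 4459842) went from 24 and 10 counts to 775 and 1753, a log2 fold change of 6.06 ± 0.61 (edgeR adjusted p = 0.000291), with 114 and 112 counts in wt. The cysteine transporter gene SPBPB10D8.01 (chromosome II, 80899 to 83357) went from 80 and 41 counts to 1104 and 2069, by 4.59 ± 0.46 on the log2 scale (edgeR adjusted p = 0.000291). In each of these genes both set2Δ libraries were above both wt2 libraries and above both wt libraries. SPBPB10D8.01 was also at 623 and 355 counts in wt, so wt2 itself stood below wt there by 3.16 on the log2 scale (edgeR adjusted p = 0.011). Genes annotated as transporters made up 6 of the 51 coding genes that rose near the ends (11.8%) and 13 of the 98 tested there (13.3%). This count leaves out the gluconate symporter gene ght3, which also rose. By this count transporters were no larger a share of the risers than of the genes tested.

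Of 6 near genes annotated as amidase, asparaginase or formamidase-like, 4 rose, beside 66 of all 138 near genes tested (47.8%). This grouping was made after the values were seen. The L-asparaginase gene SPAC186.03 (chromosome I, 5535061 to 5536432) had 12 and 14 counts in wt2 and 623 and 842 in set2Δ, a log2 fold change of 5.67 ± 0.47 (edgeR adjusted p = 0.000104). The L-asparaginase gene SPBPB21E7.09 (chromosome II, 75073 to 77625) had 54 and 28 against 809 and 1197, a change of 4.50 ± 0.34 (edgeR adjusted p = 7.5e-05). These genes share sequence with other loci: 62.0% and 58.3% of their 50-base words occur again in the reference genome, so their counts may be split or lost among copies. The amidase gene SPAC869.01 (chromosome I, 5521275 to 5523181), with none of its 50-base words repeated, went from 6 and 4 counts to 297 and 501, by 6.15 ± 0.84 (edgeR adjusted p = 0.0025). A formamidase-like gene, SPAC869.04 (chromosome I, 5511137 to 5512369), went from 4 and 6 counts to 158 and 299, by 5.31 ± 1.07 (edgeR adjusted p = 0.0165), a call lost in all 4 fits that left out a library (0.0538 to 0.147). The other 2, SPAC977.12 and SPBPB8B6.05c, with 73.3% and 73.3% of their words repeated, stood at -0.13 ± 0.24 and 0.21 ± 0.25 (edgeR adjusted p = 0.824 and 0.719). In each of the 4 genes that rose both set2Δ libraries were above both wt2 libraries.

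Some genes annotated to sugar and carbon use rose and others did not pass; apart from ght3 and ght7 they were picked after their values were seen. The gluconate symporter gene ght3 (chromosome I, 82746 to 84786) had 58 and 33 counts in wt2 and 637 and 1268 in set2Δ, a log2 fold change of 4.25 ± 0.38 (edgeR adjusted p = 0.000118). The hexose transporter gene ght7 (chromosome II, 38514 to 40277) went from 3.87 and 2.09 CPM to 56.3 and 44.2 CPM, a change of 4.06 ± 0.77 (edgeR adjusted p = 0.0119), but passed in only 1 of the 4 fits that left out a library. None of the 4 near genes of galactose use passed in edgeR: mel1 stood at 3.34 ± 0.94, gal1 at 2.24 ± 0.60, gal10 at 0.86 ± 0.66 and gal7 at 0.12 ± 0.45 (edgeR adjusted p = 0.0716, 0.0573, 0.562 and 0.927). At an unadjusted p under 0.05 there were 2 of them, and DESeq2 called 1. The pyruvate decarboxylase gene pdc102 went from 76 and 6 counts to 645 and 636, and the enolase gene eno102 from 6 and 5 to 55 and 101 (edgeR adjusted p = 0.0141 and 0.0155). The dihydroxyacetone kinase gene dak2 (chromosome I, 64559 to 66980), an enzyme of glycerol use, went from 166 and 168 counts to 574 and 890, by 1.99 ± 0.30 (edgeR adjusted p = 0.00381), and passed whichever library was left out. The eno102 call was lost in all 4 fits that left out a library (edgeR adjusted p = 0.0503 to 0.136). That of pdc102 was lost in 2 of them, and its log2 fold change ran from 3.13 without wt2 replicate 2 to 6.46 without wt2 replicate 1. Both eno102 and dak2 overlap another gene.

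The near genes annotated as transcription factors were 2, both named after their values were seen, and both rose, beside 47.8% of all 138 near genes tested. The genes grt1 (chromosome II, 47369 to 51220) and SPBC1348.12 (chromosome II, 35112 to 36589) had 18 and 5, and 38 and 36, counts in wt2. In set2Δ they had 338 and 510, and 596 and 921, with log2 fold changes of 5.10 ± 0.62 and 4.22 ± 0.35 (edgeR adjusted p = 0.00106 and 0.000104); that of grt1 ran from 4.56 without wt2 replicate 2 to 6.08 without wt2 replicate 1. Of 10 near pfl and ftm genes, for surface glycoproteins and membrane helix proteins, 5 rose, which is close to the share of all near genes. The cell-surface glycoprotein gene pfl9 (chromosome I, 5527462 to 5528959), of a family named for flocculation, went from 158 and 104 counts to 1032 and 1268, by 3.04 ± 0.51 (edgeR adjusted p = 0.00729), which became 0.0752 without wt2 replicate 2. The phosphoprotein phosphatase gene SPBPB2B2.06c (chromosome II, 4469018 to 4471207) went from 0.505 and 2.51 CPM to 78.4 and 142 CPM, a log2 fold change of 6.24 ± 0.56 (edgeR adjusted p = 0.000118) that ran from 5.45 without wt2 replicate 1 to 7.73 without wt2 replicate 2. The membrane protein genes ftm6 and ftm7 each had 2 and 0 counts in wt2, with 85 and 49, and 122 and 118, in set2Δ, and are given no fold. Among those that did not pass, pfl8 stood at -0.10 ± 0.75 and pfl6 at 2.64 ± 0.81 (edgeR adjusted p = 0.965 and 0.0957). The pseudogene SPBPB10D8.03 (chromosome II, 87727 to 89029) had 0 counts in both wt2 libraries and 267 and 400 in set2Δ. That is at least 204-fold higher when wt2 is set at 3 counts over the group, if each count is a separate molecule. The same gene had 31 and 6 counts in wt.

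**Figure D2:**
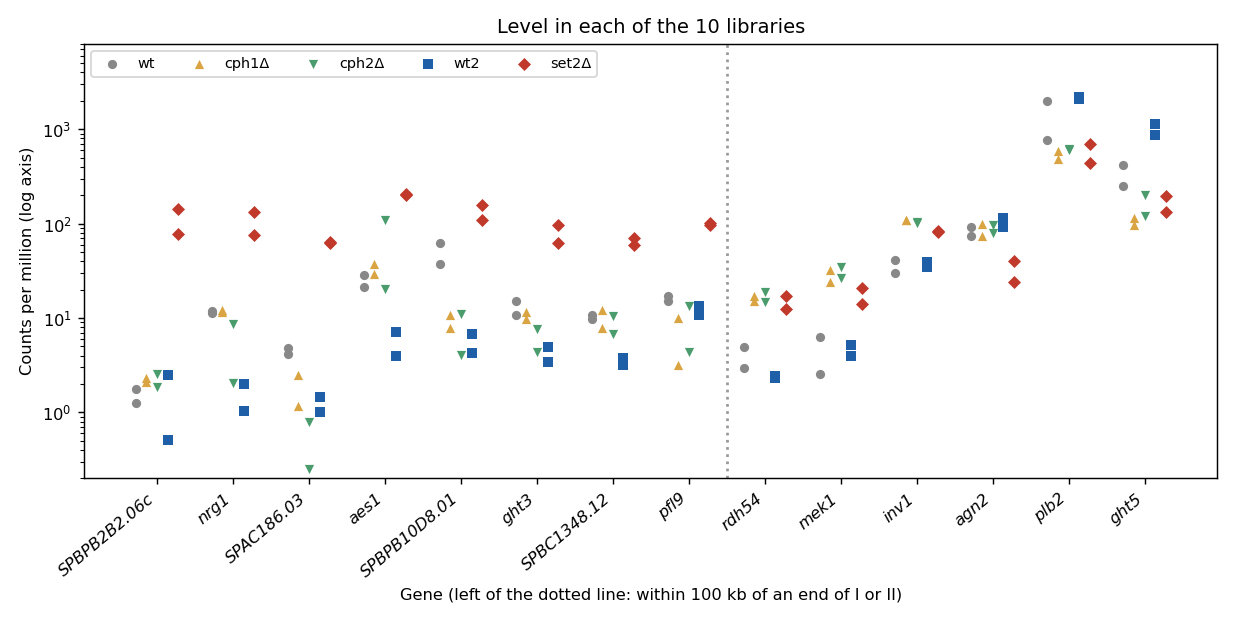
The level of 14 genes in each of the 10 libraries is shown in CPM on a log axis, with near genes left of the dotted line, 1 symbol a library and colours for the 5 strains. For the 8 near genes both set2Δ symbols lie above every other strain; for rdh54, mek1 and inv1 they lie near cph1Δ and cph2Δ and above both parents, and for ght5 they lie with the lower strains.

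The gene aes1 (chromosome II, 70156 to 71310) is annotated in the phenazine biosynthesis family. It had 84 and 38 counts in wt2 and 2034 and 2691 in set2Δ, or 7.07 and 3.97 CPM against 201 and 206 CPM, a log2 fold change of 5.18 ± 0.65 (edgeR adjusted p = 0.00128). Its level in other strains varied, with 290 and 204 counts in wt and 206 and 1279 in cph2Δ, yet both set2Δ libraries were above all 8 others. The isomerase gene SPAC186.06 (chromosome I, 5542290 to 5543031) went from 15 and 0 counts to 248 and 313, with a fitted log2 fold change of 5.15 ± 0.81 (edgeR adjusted p = 0.00535). That value ran from 4.24 without wt2 replicate 2 to 11.05 without wt2 replicate 1, since the remaining wt2 library is then at 0, and its size is uncertain. Their promoters are printed with that of the urea transporter SPAC869.03c, as 3 near genes free of repeated sequence, and with that of SPBC8E4.05c, a fumarate lyase gene that rose 108.1 kb from an end. Each is the 250 bases before the gene start in RefSeq (build ASM294v3), 5′ to 3′ on the plus strand, at II:69882-70131, I:5512507-5512756, I:5541782-5542031 and II:4429940-4430189. Capitals mark TATAAA, the TATA box, and TGACGT, the CRE box, on either strand.
aes1: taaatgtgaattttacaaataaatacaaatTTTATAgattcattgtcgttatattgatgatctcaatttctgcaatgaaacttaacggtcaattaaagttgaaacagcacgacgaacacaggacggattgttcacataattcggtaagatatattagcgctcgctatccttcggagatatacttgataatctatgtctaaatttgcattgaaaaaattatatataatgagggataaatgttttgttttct
SPAC869.03c: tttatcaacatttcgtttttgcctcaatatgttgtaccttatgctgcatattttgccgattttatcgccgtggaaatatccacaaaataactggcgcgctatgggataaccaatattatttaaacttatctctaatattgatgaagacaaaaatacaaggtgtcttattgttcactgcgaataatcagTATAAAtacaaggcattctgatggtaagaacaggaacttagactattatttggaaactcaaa
SPAC186.06: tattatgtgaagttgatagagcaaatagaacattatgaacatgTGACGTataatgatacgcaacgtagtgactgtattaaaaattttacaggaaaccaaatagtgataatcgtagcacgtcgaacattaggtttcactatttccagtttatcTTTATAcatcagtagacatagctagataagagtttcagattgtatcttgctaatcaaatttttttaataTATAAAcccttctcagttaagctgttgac
SPBC8E4.05c: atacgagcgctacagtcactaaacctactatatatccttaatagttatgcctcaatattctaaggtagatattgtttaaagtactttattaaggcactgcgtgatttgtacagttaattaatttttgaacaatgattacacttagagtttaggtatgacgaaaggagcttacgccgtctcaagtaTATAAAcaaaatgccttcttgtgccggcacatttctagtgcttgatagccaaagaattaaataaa
Each window holds the TATAAA letters, and TGACGT is in that of SPAC186.06 alone. The TATA box was found before 25 of the 51 near coding genes that rose (49.0%) and 44.3% of the 4408 coding promoters searched, and the CRE box before 7.84% and 5.44%. The forkhead letters GTAAACA, searched on both strands, were before none of the 51, 2 of the 98 near genes tested and 14.5% of all. A match is a run of letters and says nothing of binding.

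Not every gene at the ends moved. The phosphate transporter gene pho84 had 10249 and 7451 counts in wt2 and 8225 and 6619 in set2Δ, a log2 fold change of -0.32 ± 0.28, and the acid phosphatase gene pho1 had 2396 and 2272 against 2486 and 2266, a change of -0.07 ± 0.28 (edgeR adjusted p = 0.629 and 0.934). Both lie over 90 kb from the end and were already high in wt2. One gene fell: tlh2, a RecQ-type helicase gene at the right end of II (4526885 to 4532899), with 494 and 587 counts in wt2 and 105 and 89 in set2Δ, a change of -2.59 ± 0.67 (edgeR adjusted p = 0.0497). This call was lost in every fit that left out a library (edgeR adjusted p = 0.101 to 0.27), wt held 116 and 36 counts, and 93.2% of the gene's 50-base words are repeated elsewhere. Its copy tlh1 had 36 and 75 counts against 29 and 49 (edgeR adjusted p = 0.706). The genes SPBC460.01c, SPBC460.05 and SPBC460.04c, on an unplaced contig, rose too: the first went from 624 and 439 counts to 1673 and 2080, the next from 5 and 14 to 746 and 1368, and the last from 2 and 2 to 184 and 270 (edgeR adjusted p = 0.000888, 0.0017 and 0.000118).

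The near calls had 3 limits. First, wt2 was low there: the median log2 difference of wt2 from wt was -0.75 over the near genes and -1.58 over the 66 that rose, which were themselves called against wt2, beside 0.01 over all genes, although 10 genes in all passed that test (0.197%), 3 of them higher in wt2 (0.0592%) and 7 lower (0.138%). All 66 were above both wt libraries as well as both wt2 libraries. Among genes already above both wt2 libraries, 108 of 123 near genes (87.8%) and 1024 of 1584 over all genes (64.6%) were also above wt, and the 66 were chosen for lying above wt2. Second, the number called depended on each library: of the 67 near calls 31, 35, 33 and 26 stayed without set2Δ replicate 1, set2Δ replicate 2, wt2 replicate 1 and wt2 replicate 2, with no change of direction, and 21 of the 66 risers passed in all 4 fits. Among those 21 are nrg1, SPAC869.01, SPAC869.03c, SPBPB8B6.02c, SPBPB2B2.06c, SPBPB10D8.01, SPAC186.03, SPBPB21E7.09, SPAC186.06, aes1, grt1, SPBC1348.12, ght3 and dak2. Last, more than 50% of the 50-base words were repeated in 23 of the 66, and 41 had under 1%. Counts of 1 to 20 in near coding genes without overlap were even in 70.7% of 311 values, beside 65.6% of such values over all genes and 47.8% of 2133 in overlapping genes, so small counts may not be independent molecules anywhere in the table.

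Away from the ends the changes were smaller and mostly upward. Genes that rose included some for meiosis and recombination and some for nutrient transport, and genes that fell included a glucose transporter, a phospholipase and a pheromone precursor. Of 4919 genes tested 150 rose and 28 fell, of which 90 and 16 changed at least 2-fold, and the median log2 fold change was 0.02. The zone from 100 to 200 kb held 32 of the 150 rises among 162 genes, with a median of 0.51, and the remaining 4757 genes held 118 rises and 27 falls, with a median of 0.01. Leaving out set2Δ replicate 1, set2Δ replicate 2, wt2 replicate 1 or wt2 replicate 2 kept 59, 80, 31 and 23 of the 178 calls, with every direction held. The rises that passed in all 4 such fits were 14, and the falls 3 (set2, ght5 and agn2).

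**Figure D3:**
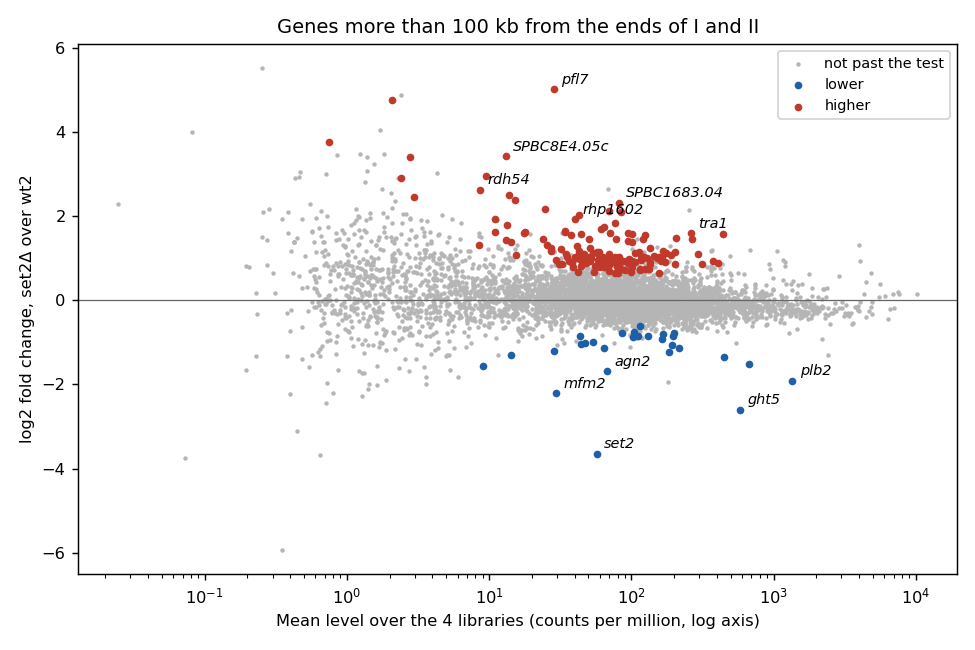
The log2 fold change of set2Δ over wt2 is plotted against the mean level over the 4 libraries in CPM on a log axis, for each gene tested more than 100 kb from the ends of I and II. The 150 red genes (higher) lie mostly between 10 and 200 CPM, the 28 blue genes (lower) include set2 at -3.65, and grey genes did not pass.

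Several of the larger rises among coding genes outside 100 kb lay in the zone next to it. The flocculation glycoprotein gene pfl7 (chromosome II, 117892 to 121286) had 18 and 18 counts in wt2 and 490 and 812 in set2Δ, a log2 fold change of 5.02 ± 0.77 (edgeR adjusted p = 0.00451), and wt stood between them at 253 and 230. It opens a run of 5 coding genes that rose (117892 to 138470, 20.6 kb), with the iron-responsive vacuolar transporter gene abc3 (188 and 167 counts against 599 and 1018, 2.04 ± 0.29, edgeR adjusted p = 0.00319), mug14 (58 and 46 against 224 and 374, 2.39 ± 0.40, edgeR adjusted p = 0.00682) and the phosphate transporter gene pho841 (1272 and 1055 against 2485 and 4705, 1.48 ± 0.24, edgeR adjusted p = 0.00673). In wt, abc3 was at 541 and 303 counts, mug14 at 251 and 104 and pho841 at 4447 and 5267. All of them were above wt2 in set2Δ. In CPM both set2Δ libraries were above both wt libraries for abc3, but not for mug14 or pho841. At the other end of II the fumarate lyase gene SPBC8E4.05c (4430181 to 4431679) went from 22 and 25 counts to 237 and 323, by 3.43 ± 0.33 (edgeR adjusted p = 0.000253), within another run of 5 (4414657 to 4435868). The glycosyl hydrolase gene SPBC1683.04 (chromosome II, 142262 to 145393) had 340 and 246 counts against 1148 and 2077, a change of 2.32 ± 0.25 (edgeR adjusted p = 0.000394). Runs away from the ends took in 31 of the 141 coding genes that rose.

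Farther inside the chromosomes the rises were modest and many were of genes at a low level in wt2. The DNA translocase gene rdh54 (chromosome I, 703669 to 707990), which acts in meiotic recombination, had 2.44 and 2.30 CPM in wt2 and 17.3 and 12.4 CPM in set2Δ, a log2 fold change of 2.64 ± 0.38 (edgeR adjusted p = 0.00337). The translocase gene rhp1602 (chromosome II, 436090 to 439017), of the Rad16 group of repair proteins, had 181 and 174 against 526 and 989, by 1.94 ± 0.23 (edgeR adjusted p = 0.000822). The aromatic aminotransferase gene SPBC1773.13 (chromosome II, 310402 to 312518) had 96 and 95 against 386 and 557, by 2.17 ± 0.23 (edgeR adjusted p = 0.000379). All of these passed in every fit that left out a library, as did top1 (DNA topoisomerase I), at 1.13 ± 0.16, the lipid transfer gene vps1301 at 1.57 ± 0.21, npg1 at 1.54 ± 0.18 and ssd1 at 1.45 ± 0.20. The invertase gene inv1, repressed by glucose, rose from 463 and 331 counts to 837 and 1067 (1.16 ± 0.18, edgeR adjusted p = 0.00535), which became 0.0752 without wt2 replicate 2. Many of these genes, rdh54, rhp1602, SPBC1773.13 and vps1301 among them, overlap a neighbour's exons.

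The falls were few, and several were in genes of high level. The glucose transporter gene ght5 (chromosome III, 212160 to 214376), the main high-affinity hexose carrier, had 13347 and 8412 counts in wt2 and 1341 and 2593 in set2Δ, a log2 fold change of -2.60 ± 0.33 (edgeR adjusted p = 0.00164). The wt libraries held 2551 and 3952, so wt2 was the highest strain for this gene. The α-glucanase gene agn2 (chromosome II, 932654 to 934311), which acts on the wall of the ascus, had 1090 and 1103 against 410 and 312, by -1.69 ± 0.26 (edgeR adjusted p = 0.00527), and wt, at 749 and 863, was also above set2Δ. The phospholipase gene plb2 (26348 and 19859 against 7094 and 5769, -1.91 ± 0.39) and the M-factor pheromone gene mfm2 (763 and 314 against 145 and 90, -2.20 ± 0.49, or -2.82 without set2Δ replicate 1) passed in 0 and 2 of the fits that left out a library (edgeR adjusted p = 0.0168 and 0.025 with all). The FAR complex gene csc2, named after its values were seen, had 703 and 574 counts against 329 and 331, by -1.05 ± 0.19 (edgeR adjusted p = 0.0109), and wt was at 351 and 344. Of the 28 falls 23 (82.1%) also lay below both wt libraries, and of the 150 rises 138 (92%) also lay above both. These genes were chosen for lying beyond wt2, and among all genes beyond both wt2 libraries in the same direction, 55.3% of 1359 and 64.6% of 1584 did so.

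Genes of named pathways were described by count and median, beside a median of 0.03 for all genes and 4.32% called higher. Of 5 Clr6 complex II genes none passed in edgeR, with a median of 0.42 (2 at an unadjusted p under 0.05, and 1 by DESeq2), and pst2 stood at 0.55 ± 0.16 (edgeR adjusted p = 0.0843). Of 15 histone methyltransferase genes and 9 histone genes none passed in edgeR or DESeq2 (1 and 0 at an unadjusted p under 0.05). Of 26 genes for elongation factors and remodellers the kinase gene lsk1 alone rose (102 ± 4.25 CPM against 204 ± 18.5 CPM, SD, edgeR adjusted p = 0.0101). Among heterochromatin genes, chp2, for an HP1-type protein (1.06 ± 0.22), and mit1, for a remodeller of the SHREC complex (1.01 ± 0.23), rose. Of 16 telomere genes, taz1 (0.85 ± 0.20) and pot1 (0.79 ± 0.19) were higher and tlh2 (-2.59 ± 0.67) was lower. In the fits that left out a library pot1 passed in none, and chp2, mit1 and taz1 in 1 each. Iron genes had 2 of 13 higher (abc3 and sib1, median 0.70), nitrogen starvation and permease genes 3 of 18 (isp5, isp4 and per1, 0.46), and flocculation genes 4 of 13 (pfl7, pfl9, pfl5 and adn2, 0.19). Taken by set2Δ library against the wt2 mean, on log2(CPM + 0.5), the iron median was 0.30 in replicate 1 and 1.10 in replicate 2, and the nitrogen median 0.07 and 0.67, so both rest mainly on replicate 2. Several of the listed genes lie near an end, so position and list overlap. Among the other called genes of these lists, abc3 and pfl7 kept their calls whichever library was left out. Those of lsk1, tlh2, sib1, isp5, isp4, per1, pfl9, pfl5 and adn2 were not kept in every such fit.

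Some other lists of stress and nutrient genes held a single member that passed. The small heat shock gene hsp16 was the 1 of 14 chaperone genes that rose (1.57 ± 0.40, edgeR adjusted p = 0.0466), with a mean of 223 ± 20.2 CPM in wt2 and 662 ± 456 CPM in set2Δ, so the set2Δ libraries were far apart; its log2 fold change was 0.60 without set2Δ replicate 2. The catalase gene ctt1 was the 1 of 15 general stress genes (1.15 ± 0.26, edgeR adjusted p = 0.0261), and tgp1, a glycerophosphodiester transporter gene, the 1 of 8 phosphate genes (1.25 ± 0.27, edgeR adjusted p = 0.0222). The list of phosphate genes does not hold pho841. For tgp1 the log2 fold change ran from 1.01 to 1.46 over the fits that left out a library, and its call was not kept in all of them. The RecQ helicase gene rqh1 was the 1 of 25 DNA damage genes that rose (0.96 ± 0.23, edgeR adjusted p = 0.0331). Of 18 targets and subunits of the S-phase factor MBF none passed in edgeR, with a median of 0.31 (6 at an unadjusted p under 0.05, and 2 by DESeq2). Among 20 mating genes mam3, for a cell-surface agglutinin, rose (0.91 ± 0.20, edgeR adjusted p = 0.0245) and mfm2 fell. The calls of hsp16, ctt1, rqh1 and mam3 each passed in 1 of the 4 fits that left out a library.

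Meiotic transcripts, silenced in growing cells, had 13 of 25 genes tested and a median of 1.02, 11 of them above 0; by set2Δ library the median was 0.68 and 1.13. The recombination kinase gene mek1 rose from 61 and 38 counts to 143 and 270 (1.93 ± 0.41, edgeR adjusted p = 0.0186), and the axis protein gene rec10 from 446 and 201 to 1320 and 875 (1.75 ± 0.36, edgeR adjusted p = 0.0167). The other 11 did not pass, and mek1 and rec10 passed in 1 and 2 of the 4 fits that left out a library. The Tf2 retrotransposons, near-identical copies whose reads can be shared, had all 13 tested copies above 0 with a median of 1.33 (0.63 and 1.28 by set2Δ library), and Tf2-11 rose (24 and 22 counts against 130 and 275, 2.97 ± 0.44, edgeR adjusted p = 0.00381). Growth genes had no calls in edgeR: of 105 ribosomal protein genes none passed in edgeR (1 at an unadjusted p under 0.05, and 1 by DESeq2), 98 had a negative value and the median was -0.23. The 58 ribosome biogenesis and 45 respiratory genes had no calls in either tool (4 and 3 at an unadjusted p under 0.05), with medians of -0.07 and -0.12. Among 320 antisense non-coding RNAs, which lie opposite coding genes, 6 were called higher and 2 lower, with a median of 0.34, but without strand their counts cannot be told apart from those of the sense gene. Other non-coding RNAs had 11 of 183 higher, with a median of 0.52. Both lists take in genes near the ends. Away from the ends, 6 of 166 other non-coding RNAs were higher, with a median of 0.36. Of the antisense RNAs there, 2 of 312 were higher and 2 lower, with a median of 0.33.

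Longer genes were called higher more often. Among coding genes away from the ends, 0.786% of the 636 under 1000 bases of exon rose, 1.89% of those of 1000 to 2000, 3.19% to 3000, 6.10% to 4000, 9.09% to 6000 and 17.2% of the 64 above that. The median log2 fold change went from -0.06 in the shortest to 0.23 in the longest. Longer genes also give more counts and so a stronger test, and the part of that in the share called was not tested. By level in wt2, 9.39% of genes at 5 to 10 CPM per kb and 7.83% at 10 to 30 rose, against 1.15% at 30 to 100 and 0.367% above 100. The falls lay at the other side, with 15 and 10 of them in the upper 2 classes. The level in wt2 is itself one side of the fold change, so the second pattern is in part built in. Rising genes overlapped a neighbour about as often as others, 58% against 61.9%.

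**Figure D4:**
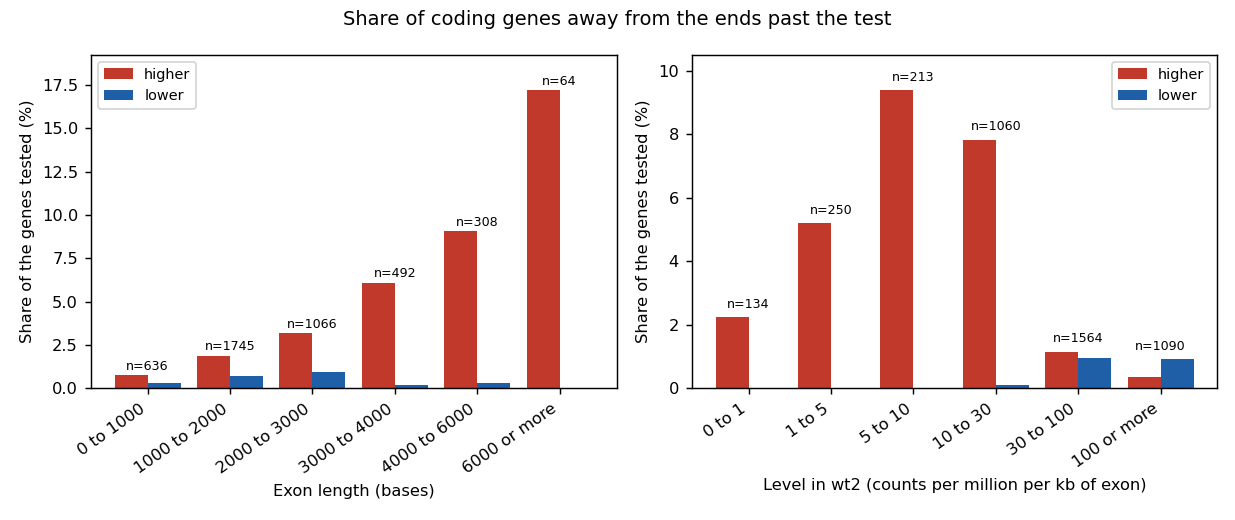
Bars give the share of coding genes away from the ends that rose (red) or fell (blue), as a percentage of those tested, by exon length in bases (left) and by level in wt2 in CPM per kb of exon (right), with the number tested above each pair. The share that rose climbs from 0.786% to 17.2% with length and is 9.39% at 5 to 10 CPM per kb.

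Cph1 and Cph2, subunits of the complex that reads the Set2 mark, were deleted in the wt background, and their libraries share none with set2Δ and wt2. Near the ends none of the genes that rose in set2Δ passed the test as higher in either deletion. Of the 67 near calls, 55 were among genes kept by a filter on the 8 libraries other than set2Δ. The remaining genes entered the test only through set2Δ, so for them the lack of a rise in cph1Δ or cph2Δ was largely set by the filter. Over all genes 5.62% were called in cph1Δ (5.31% higher and 0.316% lower) and 6.12% in cph2Δ (5.21% higher and 0.908% lower). Of the 66 near rises 0 rose in cph1Δ or cph2Δ in edgeR (1 and 2 at an unadjusted p under 0.05), and 3 and 8 of them fell, with median effects of -0.31 and -1.19 against 4.63 in set2Δ. The sign was the same as in set2Δ for 23 of the 66 in cph1Δ and 10 in cph2Δ, and SPAC212.08c stood at 5.57 and 6.85 there without passing. The difference between effects, tested as an interaction, was called higher in set2Δ for 26 of the 66 against cph1Δ and 43 against cph2Δ, where over all genes 44 (0.868%; 0.75% higher and 0.118% lower) and 64 (1.26%; 1.14% higher and 0.118% lower) were called. The 66 were chosen for a rise in set2Δ, which is 1 side of this difference, so their share called is in part built in. Among all 138 near genes tested the difference was called higher for 26 (18.8%) and 43 (31.2%). The counts of 44 and 64 over all genes include the deleted genes, set2 in each and cph1 or cph2 in turn. For ght3 the difference was 4.52 against cph1Δ and 5.34 against cph2Δ (edgeR adjusted p = 0.000897 and 0.000325), and for SPAC186.03 it was 6.97 and 8.79 (edgeR adjusted p = 0.000203 and 0.000107). Such a difference also holds any difference between the parents wt and wt2, which cannot be told apart from it.

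Beyond 200 kb, many of the genes that rose in set2Δ rose in the other deletions as well. Of the 118 genes that rose there, or on III, in set2Δ, 74 (62.7%) also rose in cph1Δ, which is 29.0% of its 255 rises among the same genes, and 68 (57.6%) rose in cph2Δ, 27.0% of its 252. Those shares stand beside the 5.31% and 5.21% of all genes that rose in these deletions. The 3 comparisons use the same estimate of spread for a gene, taken over all 10 libraries. The 118 genes were also longer, with a median exon length of 2961 bases against 1784 among the genes tested there. The share over all genes is therefore not a matched reference. The median effects were 1.01 in set2Δ, 0.92 in cph1Δ and 0.89 in cph2Δ, and the difference passed in edgeR for none of the 118 against either deletion. At an unadjusted p under 0.05 it was 17 against cph1Δ and 24 against cph2Δ, and DESeq2 called 3 and 3. For rdh54 the effect was 2.64 in set2Δ, 2.02 in cph1Δ and 2.08 in cph2Δ, and for rhp1602 it was 1.94, 2.08 and 2.27. The differences were 0.62 ± 0.52 and 0.56 ± 0.52 for rdh54 (SE; edgeR adjusted p = 0.814 and 0.76), and a miss of the threshold does not show that the effects are equal. In the zone from 100 to 200 kb 6 and 5 of the 32 rises were shared, and the difference was called for 7 and 7 of these genes, likewise chosen for a rise in set2Δ. Of the 28 falls 2 were shared with each deletion.

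**Figure D5:**
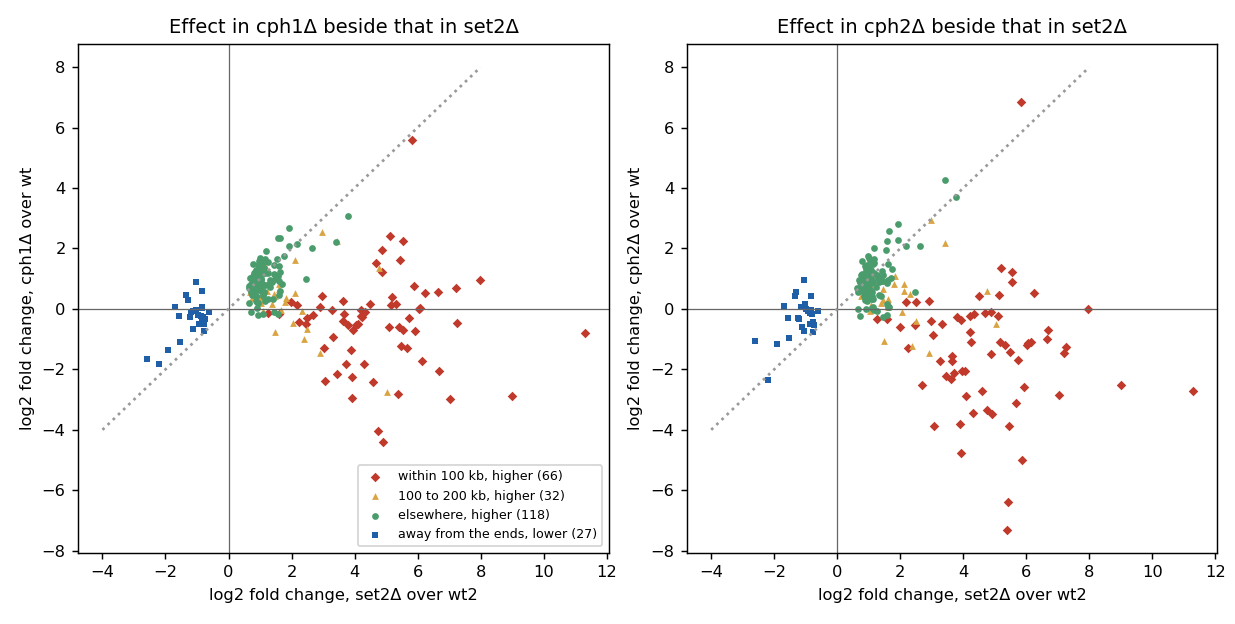
For each gene that changed in set2Δ, the log2 fold change in cph1Δ (left) or cph2Δ (right) over wt is plotted against that in set2Δ over wt2; the dotted line marks equal effects, and set2 itself is left out. The 118 rises elsewhere (green) lie around the line at 1.01 against 0.92 and 0.89 in the median, and the 66 near rises (red) lie to the right with medians of -0.31 and -1.19 on the vertical axis.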

How the data were processed

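Libraries of poly(A) RNA were sequenced on an Illumina NovaSeq 6000, per the labels' protocols. The submitters' processing notes name STAR 2.7.10a, SAMtools 1.16.1, Picard, featureCounts (Subread 2.0.1), DESeq2 1.36.0 and edgeR 3.38.4. The values used are raw counts per gene, whole numbers as deposited by the authors in 1 table; per the file headers featureCounts summed exons by gene on an ASM294v2 annotation (release 57), with no option set for strand, read pairs or multiple hits. Gene ends were set against RefSeq build ASM294v3, where 6815 of 6862 matched genes kept a start or end.

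Genes were kept with filterByExpr on the 5 strains (5067 of 7268). Counts were scaled by TMM and fitted in edgeR 4.0.16 (R 4.3.3, limma 3.58.1) with 1 mean a strain over all 10 libraries, 5 residual degrees of freedom, and the quasi-likelihood F-test; p-values were adjusted by Benjamini-Hochberg over all 5067 genes, with a threshold of 0.05. The biological coefficient of variation was 0.211. Standard errors are the log2 fold change over the root of F. CPM use TMM-scaled library sizes. Libraries of 9711537 to 13051467 counts fix a gene at 1 CPM from about 10 counts, so low genes have wide errors. The script was tested on simulated counts. DESeq2 1.42.0 was one of the alternatives, with other scalings, filters, distances, a replicate block and each library left out.

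Named genes were set2, the 12 largest rises and 12 largest falls away from the ends, the 8 largest each way near them (at least 5 CPM over the 4 libraries, libraries apart), and up to 4 members of each of 38 lists (2 where none passed). Other genes were named after their values were seen: SPAC186.03, SPAC869.04, SPBPB21E7.09, aes1, SPBPB10D8.01, grt1, SPBC1348.12, pdc102, eno102, dak2, SPAC186.06, pho84, pho1, tlh1, pho841, top1, vps1301, npg1, ssd1, csc2, abp2, ftm6, ftm7, SPAC977.12, SPBPB8B6.05c, SPAC212.08c, pfl6, the gal and mel genes and the 3 genes of the unplaced contig. The genes, lists and tests were chosen with earlier results of these data known. One list is given without its count, since a result in it is not reported here.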

Additional observations from a re-analysis of the deposited data

Results flagged for a closer look

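The set2Δ effect differed from that of cph1Δ for 44 genes and from that of cph2Δ for 64, by the interaction test. Both counts include the deleted genes themselves, set2 in each, with cph1 in the first and cph2 in the second. Their differences were set by the deletions. The flocculation gene pfl7 stood apart with a difference of 7.79 on the log2 scale from cph1Δ and 5.52 from cph2Δ (edgeR adjusted p = 0.00375 and 0.0202). The helicase gene tlh2 fell in set2Δ, with a difference of -5.68 from cph1Δ (edgeR adjusted p = 0.014), in a gene whose sequence is mostly repeated elsewhere. For agn2 the difference from cph2Δ was -1.79 (edgeR adjusted p = 0.037). For csc2 the differences were -1.94 and -2.0 (edgeR adjusted p = 0.0046 and 0.00414), and its wt2 level, 703 and 574 counts, was above the 351 and 344 of wt. The DNA-binding gene abp2, which did not pass against wt2 (0.75 ± 0.28, edgeR adjusted p = 0.177), differed by 1.97 and 2.12 (edgeR adjusted p = 0.0466 and 0.0239). Each of these differences also holds any difference between wt and wt2, and they cannot be told apart.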

How the results depend on the processing

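The 142 named genes that passed kept their direction under every alternative that tested them. The count of genes past the test was 248 over all genes, 178 away from the ends of I and II and 67 near them. Leaving out one library gave 54 to 130 over all genes, 24 to 92 away and 27 to 36 near. It gave 20 to 45 for the difference from cph1Δ (44 with all libraries) and 20 to 56 for that from cph2Δ (64), the lowest without set2Δ replicate 2 in both, and 41 without wt2 replicate 2 for cph2Δ; fewer libraries also leave fewer degrees of freedom. Leaving out genes that overlap another after the fit, which counts fewer genes, gave 132 over all and 74 away. DESeq2 gave 281 away, 86 for the difference from cph1Δ and 113 for cph2Δ, and no filter on low counts gave 69 for cph1Δ; the cause was not tested. A mean of at least 5 CPM gave 36 near and a limit of 50 kb gave 35, both from fewer genes. The other settings stayed within 1.5 times: RLE scaling 232, TMM from genes away from the ends 258, the 4 libraries alone 314 and genes chosen on the 8 other libraries 231. With replicate number as a block the counts were 227, 160 and 64, and 50 and 64 for the differences. Deviations of same-numbered libraries correlated between -0.451 and 0.335 over the 10 pairs of strains, so the numbers do not pair the libraries across all strains. The highest value, 0.335, was that of wt2 and set2Δ. Whether their libraries were paired cannot be told from these values, and the block sets 1 replicate effect for all 5 strains. The call of tlh2 (edgeR adjusted p = 0.0497) was lost with TMM from genes away from the ends (0.0503), a mean of at least 5 CPM (0.0668), genes chosen on the 8 other libraries (0.0522) and the block (0.0606). At 2 libraries a strain, depth and replicate number limit what low genes can show.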
